A study of Mus musculus with 4 samples.

Results

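The Cd74+ cluster is a small population of bone marrow-derived macrophages that the authors named in their deposited cell annotation, and its members here are the 859 cells, of 27366 in all, that carry that name. The series holds 4 single-cell RNA libraries of macrophages grown from the marrow of C57BL/6 mice aged 8 to 12 weeks in M-CSF at 50 ng/mL, 1 library for each genotype label and treatment. The groups are wild-type C57BL/6J cells without treatment, wild-type cells after lipopolysaccharide (LPS, a bacterial cell wall component that activates macrophages) at 100 ng/mL for 24 hours, cells labelled Trpv4-null without treatment, and cells labelled Trpv4-null after the same LPS exposure. Trpv4 encodes a mechanically and thermally gated calcium channel, and the label gives neither the deleted part of the gene nor a promoter or Cre driver. The design text speaks of 3 mice per genotype, but no column assigns a cell to a mouse, so each group is 1 library and no difference between libraries was tested. Values for the 4 libraries are given below in that order: wild type untreated, wild type with LPS, labelled Trpv4-null untreated, labelled Trpv4-null with LPS.

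MHC class II molecules present peptides from engulfed material to CD4+ T cells. An alpha and a beta chain, H2-Aa with H2-Ab1 or H2-Ea with H2-Eb1 in the mouse (C57BL/6 mice carry a defective H2-Ea), pair around the invariant chain Cd74, which lysosomal proteases such as cathepsin S (Ctss) degrade before the H2-DM chaperone (H2-DMa, H2-DMb1) helps to load a peptide. Ciita is the coactivator that switches these genes on, and the ubiquitin ligase March1 removes class II molecules from the cell surface. Dendritic cells and B cells carry class II constantly, whereas resting macrophages carry little and gain it mainly under interferon-gamma.

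The cluster held 231 of 7028 cells in the wild-type untreated library, 193 of 8288 in the wild-type LPS library, 203 of 5485 in the untreated library labelled Trpv4-null and 232 of 6565 in the LPS library with that label. These are shares of 3.29% (95% Clopper-Pearson interval 2.88 to 3.73), 2.33% (2.01 to 2.68), 3.70% (3.22 to 4.23) and 3.53% (3.1 to 4.01). All intervals in this section cover counting error only, and the shares are not compared between libraries because the genes that define the cluster themselves differed between them. The cluster's cells carried a median of 6751, 21832, 8833 and 19964 unique molecular identifiers (UMIs, the counted molecules), against 5617, 16575, 7868 and 15926 in the other 8 clusters. The 5% of cells with the most UMIs in each library contained 11.9% of the cluster's cells and 4.79% of the others, and a doublet caller marked 1 cell of the series, so doublets were not removed and their part in the values below was not tested. Of 74 cell barcodes that occurred in more than 1 library, 1 belonged to a cell of the cluster. Summed over cells, the cluster gave 1769639, 4208650, 1964314 and 4804257 UMIs.

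Trpv4 itself was sparse in the cluster, with 10, 6, 14 and 36 UMIs in the 4 libraries. Those counts correspond to 5.65 (exact Poisson 95% interval 2.71 to 10.4), 1.43 (0.523 to 3.1), 7.13 (3.9 to 12.0) and 7.49 (5.25 to 10.4) counts per 1000000 UMIs (CPM). The libraries labelled Trpv4-null thus had no less Trpv4 than wild type, and in the other clusters it stood at 5.84, 2.09, 8.66 and 9.72 CPM. The deleted part is not given, so reads outside it would not check the label.

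The 2 marker genes of the cluster were far above the other clusters in every library. Cd74 stood at 4061 CPM (3967 to 4156), 1805 CPM (1765 to 1846), 3497 CPM (3415 to 3581) and 1998 CPM (1958 to 2038) in the cluster, and at 73.0, 45.1, 103 and 84.1 CPM in the other clusters. H2-Aa stood at 1273, 437, 938 and 492 CPM against 5.41, 4.64, 12.0 and 9.81 CPM. The cluster therefore carried Cd74 at 55.7, 40.1, 34.1 and 23.8 times and H2-Aa at 235, 94.2, 78.2 and 50.2 times the level of the other cells. The authors built the clusters from the same genes, so these and all other differences between the cluster and the rest describe the cluster and are not tests.

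The other core class II genes were higher in the cluster as well. H2-Ab1 stood at 1068, 587, 852 and 648 CPM in the cluster and at 8.84, 28.9, 14.8 and 30.9 CPM elsewhere. H2-Eb1 stood at 877, 301, 650 and 297 CPM against 3.38, 2.51, 7.84 and 5.42 CPM. The peptide-loading chaperone was nearer to the other cells: H2-DMa had 219, 85.3, 237 and 103 CPM against 25.4, 22.2, 31.5 and 22.9 CPM, and H2-DMb1 had 154, 92.4, 185 and 134 CPM against 22.0, 21.8, 29.0 and 26.7 CPM. Ciita was at 63.3, 7.37, 73.8 and 9.16 CPM in the cluster and at 1.48, 0.10, 3.51 and 0.326 CPM outside it. The remaining members differed little or were barely counted. Ctss, abundant in all macrophages, had 3259, 2505, 3056 and 2545 CPM in the cluster against 2343, 2346, 2150 and 2382 CPM, the asparaginyl endopeptidase Lgmn had 1082, 703, 1146 and 746 CPM against 1416, 969, 1584 and 1036 CPM, and H2-DMb2, H2-Oa and H2-Ob stayed under 3 CPM in the cluster.

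**Figure D1:**
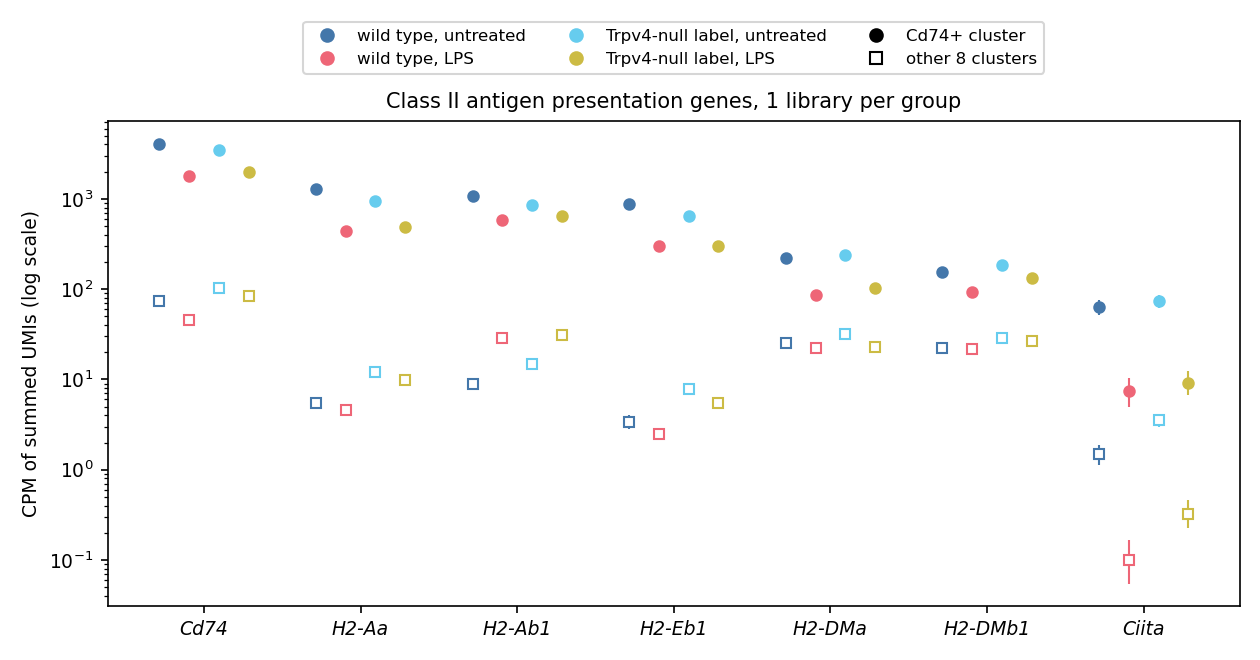
Level of 7 class II antigen presentation genes in each library, as CPM of UMIs summed over cells (log axis), with exact Poisson 95% intervals that are mostly smaller than the symbols. Filled circles are the Cd74+ cluster and open squares the other 8 clusters; in every library and for every gene the circle lies above the square, and for every gene drawn both LPS circles lie below both untreated circles (with other scalings H2-Ab1 and H2-DMb1 change sign under the Trpv4-null label, at 0.09 and 0.02 with median-of-ratios factors).

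A class II list of 15 genes, 13 of them in the table, sums this up. A gene was compared where it reached 20 CPM and 30 UMIs in the higher of the sums, and log2 ratios were taken on the CPM + 1 scale. Of the class II genes compared, 7 of 10, 6 of 9, 7 of 10 and 6 of 9 were at least 2-fold higher in the cluster than in the rest and 0 were at least 2-fold lower. Over all genes compared, 0.870%, 1.24%, 0.743% and 0.858% were at least 2-fold higher and 1.26%, 0.487%, 1.63% and 0.624% at least 2-fold lower. The list median was 3.88, 2.04, 3.46 and 2.29 on the log2 scale, beside medians of -0.09, -0.02, -0.07 and -0.04 over all genes.

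The chain genes of the I-A and I-E molecules lie side by side on chromosome 17, and their start regions are shown because they were the genes highest in the cluster relative to the rest and shared a pattern across the 4 libraries. H2-Aa spans chr17:34282744-34287823 on the minus strand and H2-Eb1 chr17:34305867-34316674 on the plus strand, with H2-Ab1 at chr17:34257689-34269419, H2-DMb1 at chr17:34153072-34160230 and Ciita at chr16:10480059-10528418 (build GRCm38, the assembly that mm10 denotes). Class II promoters are known for an X box, bound by the RFX complex, an adjoining CRE-like X2 box, bound by CREB, and a Y box, bound by NF-Y, on which Ciita assembles. The 120 bases before each start are given from RefSeq (GRCm38.p6), 5′ to 3′ on the gene's strand, at chr17:34287824-34287943 (minus strand) and chr17:34305747-34305866 (plus strand), with matches to the motifs searched in capitals.
H2-Aa: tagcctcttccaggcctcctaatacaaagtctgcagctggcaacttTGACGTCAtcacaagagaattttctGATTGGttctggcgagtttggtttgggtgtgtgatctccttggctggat
H2-Eb1: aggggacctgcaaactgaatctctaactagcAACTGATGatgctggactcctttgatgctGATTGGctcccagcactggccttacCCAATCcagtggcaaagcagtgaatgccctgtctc
The motifs were the Y box core GATTGG, an X box core AACTGATG and the CRE-like TGACGTCA, each on both strands and without overlap with one another in these windows. In H2-Aa the Y box core began 49 bases and the CRE-like match 74 bases before the start. In H2-Eb1 the X box match began 89 bases before the start, with Y box cores at 60 bases and, on the other strand, at 35 bases. Of 32851 RefSeq promoter windows of 250 bases, 14.6% held the Y box core, 0.676% the X box, 1.55% the CRE-like motif and 0.356% the Y box core with either of the others. A match describes the letters only. Of the 15 listed genes, 11 had a promoter entry; Cd74, H2-Ab1 and Ciita are named here only.

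The class II signal was spread over nearly the whole cluster but unevenly. The summed UMIs of Cd74, H2-Aa, H2-Ab1 and H2-Eb1 per 10000 UMIs of a cell had medians of 51.8, 18.5, 46.8 and 24.4 in the cluster, and the 5th to 95th percentiles ran from 14.6 to 205, 4.44 to 125, 12.7 to 164 and 8.90 to 112. Within each library the cells of the cluster thus differed by more than 10-fold. No cell of the cluster had 0 of these UMIs, whereas 81.9%, 63.3%, 73.6% and 60.8% of the other cells did. Outside the cluster 4, 26, 10 and 22 cells lay above the cluster's median, and 52, 244, 91 and 160 above its 5th percentile. The latter cells, 0.765%, 3.01%, 1.72% and 2.53% of the other cells, held 33.98%, 46.89%, 47.69% and 44.97% of the class II UMIs outside the cluster. Class II levels summed over the other clusters thus rest largely on few cells. The cluster held 77.2%, 53.7%, 65.4% and 54.9% of all UMIs of these 4 genes in the libraries.

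After every cell was thinned to 3000 UMIs, the share of cells with a Cd74 UMI was 100% (98.4 to 100), 89.1% (83.8 to 93.1), 99.5% (97.3 to 100) and 94.0% (90.1 to 96.7) in the cluster. It was 10.1%, 7.19%, 13.5% and 11.5% in the other clusters, a level that free RNA can contribute to. Thinning left out 6, 0, 2 and 0 cells of the cluster and 660, 122, 207 and 93 of the others, and without thinning the shares were 100%, 99.5%, 100% and 100% against 16.0%, 21.5%, 24.2% and 28.2%. H2-Aa was seen in 77.8%, 48.7%, 67.2% and 55.6% of thinned cells of the cluster against 1.11%, 0.853%, 1.24% and 1.62% elsewhere. A Ciita UMI was present in 18.7% and 14.4% of the thinned untreated cells and in 2.07% and 3.02% of the thinned LPS cells of the cluster, with wild type first.

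Among the other named clusters, the highest class II levels were in the clusters Ifit1bl1+_Cmpk2+, Proliferating and Tmem176+. The same 4 genes summed to 7279, 3130, 5936 and 3434 CPM in the Cd74+ cluster. Ifit1bl1+_Cmpk2+ reached 302, 116, 421 and 232 CPM, Proliferating 198, 189, 376 and 228 CPM, and Tmem176+ 203, 91.0, 165 and 147 CPM. The Cd74+ cluster was therefore more than 10-fold above each of them in every library.

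**Figure D2:**
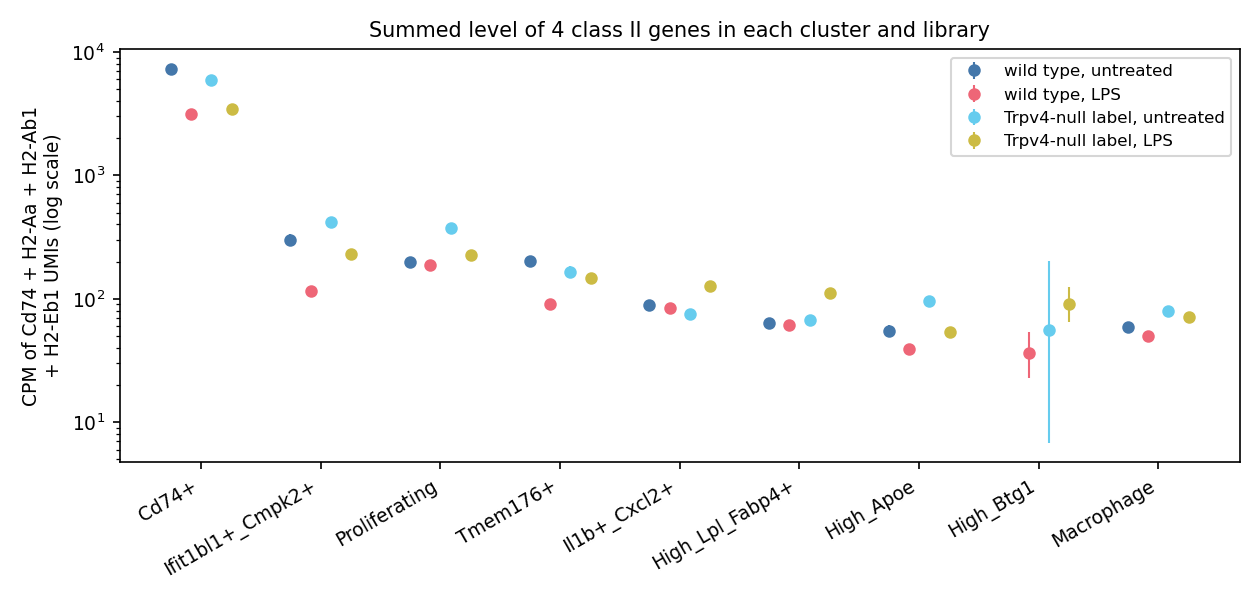
Summed level of Cd74, H2-Aa, H2-Ab1 and H2-Eb1 in each of the 9 clusters, as CPM (log axis) with exact Poisson 95% intervals; colours mark the 4 libraries, and the wild-type untreated High_Btg1 cells, which had 0 of these UMIs, are not drawn. The Cd74+ cluster lies between 3130 and 7279 CPM and the highest point of any other cluster is 421 CPM.

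Macrophage markers were present in the cluster's sums in every library. All 14 macrophage markers listed reached 20 CPM in the cluster in every library, and their summed level was 32454, 21348, 33690 and 20324 CPM against 36165, 25913, 33665 and 25104 CPM in the other clusters. Csf1r, the M-CSF receptor, had a UMI in 91.6%, 77.7%, 96.5% and 82.3% of thinned cells, against 96.7%, 83.0%, 97.3% and 82.6% of other cells, with no cell type lacking the gene at hand to give the background. Of the 14, 2, 3, 0 and 2 were at least 2-fold lower in the cluster, beside 1.26%, 0.487%, 1.63% and 0.624% of all genes, the mannose receptor Mrc1 (257, 29.2, 299 and 20.4 CPM against 521, 65.0, 515 and 52.8 CPM) and Apoe (1708, 276, 3398 and 315 CPM against 4449, 578, 5169 and 806 CPM) among them in both wild-type libraries and the LPS library labelled Trpv4-null. No listed macrophage marker was at least 2-fold higher in the cluster.

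Dendritic cell markers were mostly low. Of 9 markers shared by dendritic cells, 2, 2, 1 and 2 reached 20 CPM in the cluster, and their sum of 367, 186, 370 and 214 CPM was close to the 364, 194, 388 and 209 CPM of the other clusters. Itgax (CD11c) stood out in that list with 33.3, 25.7, 17.3 and 20.4 CPM in the cluster against 2.74, 2.78, 2.62 and 2.50 CPM. It was counted in a minority of the cluster: 23 of 231, 44 of 193, 17 of 203 and 44 of 232 cells. The 5 cells with the most held 64.4%, 34.3%, 64.7% and 33.7% of its UMIs. Flt3, the growth factor receptor of conventional dendritic cells, had 2, 5, 2 and 0 UMIs in the cluster. Clec9a, a marker of cross-presenting dendritic cells, was seen in 0 of 225, 0 of 193, 0 of 201 and 0 of 232 thinned cells, which allows a share of cells with a UMI of up to 1.33%, 1.55%, 1.49% and 1.29% at 3000 UMIs per cell and sets no limit on cells expressing it. For cross-presenting dendritic cells the 8 listed markers summed to 240, 144, 209 and 138 CPM against 181, 138, 164 and 150 CPM, and for the second conventional or monocyte-derived type the 10 of 14 in the table summed to 2202, 860, 2411 and 921 CPM against 1379, 608, 1584 and 711 CPM, with Cd209a at 3, 0, 4 and 0 UMIs.

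Other leukocytes left few traces among the markers that were in the table. Among 11 B cell genes, 4 were in the table and only the immunoglobulin heavy chain Ighm reached 20 CPM, at 155 and 156 CPM in the untreated cluster beside 133 and 136 CPM in the other untreated cells. Neutrophil markers summed to 80.8, 186, 76.4 and 146 CPM against 223, 120, 381 and 123 CPM. Only 2 of 10 T cell or natural killer markers and 2 of 6 mast cell or basophil markers were in the table. None of them reached 20 CPM in the cluster, and the markers missing from the table could not be examined. The 10 monocyte markers summed to 212, 1386, 203 and 1353 CPM against 108, 953, 112 and 1046 CPM. Ccr2, the chemokine receptor of monocytes newly arrived from blood, had 151, 18.1, 136 and 15.8 CPM in the cluster against 29.1, 6.42, 23.2 and 5.08 CPM. Ccr2 was seen in 18.7% and 18.9% of thinned untreated cells of the cluster, against 3.93% and 3.45% of the other untreated cells.

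Beyond class II, few genes set the cluster apart in all libraries. Of 4733 genes compared in all 4, 14 (0.296%) were at least 2-fold higher in the cluster in every library and 6 (0.127%) at least 2-fold lower. Of the genes past 2-fold in a single untreated library, 40.9% (wild type) and 31.3% (labelled Trpv4-null) were higher in the cluster, and 55.7% and 43.9% with median-of-ratios factors. Named by the size of their smallest ratio, the leading genes opened with 6 class II genes and included Mmp12, Axl, Itgb7, Cx3cr1, Uchl1, Ly6a, Lsp1, Plaur, Malt1, Gpr141, Tmem176a, Sdc1 and Tifab. The 14 that passed 2-fold in every library ended with Lsp1 and Plaur, both with a smallest log2 ratio of 1.12.

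Several of these are receptors for dying cells, chemokines or vessel walls. Axl, a receptor tyrosine kinase that binds dying cells through Gas6, had 134, 73.4, 104 and 57.4 CPM in the cluster against 20.7, 15.3, 13.5 and 15.5 CPM, and was counted in 114, 113, 88 and 107 cells of the cluster. Its ligand Gas6 was lower in the cluster, with 216, 20.9, 206 and 18.3 CPM against 484, 51.7, 437 and 47.3 CPM. Axl and Gas6 thus stood on opposite sides of the other cells in every library.

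The chemokine receptor Cx3cr1 and the integrin subunit Itgb7 were higher in the cluster in every library. Cx3cr1, the fractalkine receptor, had 27.1, 30.2, 47.3 and 27.1 CPM against 9.39, 9.95, 7.19 and 8.77 CPM. Itgb7, the beta 7 subunit, which pairs with alpha chains for gut homing and retention, had 51.4, 25.9, 116 and 26.6 CPM against 10.4, 7.41, 16.9 and 8.76 CPM.

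Mmp12, the macrophage elastase, had 248, 159, 175 and 181 CPM in the cluster against 34.2, 9.47, 48.5 and 26.2 CPM, but from few cells. It was counted in 41, 35, 29 and 60 cells, and the 5 cells with the most held 74.7%, 82.3%, 71.5% and 58.4% of its UMIs. Axl was spread more evenly, with 12.2%, 12.6%, 15.6% and 16.7% of its UMIs in its top 5 cells.

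The genes lower in the cluster included several of dividing cells. Top2a, the topoisomerase of replicating chromosomes, had 2.83, 6.42, 3.05 and 2.71 CPM in the cluster against 46.4, 31.6, 97.5 and 42.3 CPM. Mki67, the marker of cycling cells, had 15.3, 5.46, 14.8 and 4.79 CPM against 77.6, 20.6, 122 and 25 CPM. Of the 16 listed genes of G2 and mitosis, 11, 3, 13 and 6 could be compared and all of these were at least 2-fold lower in the cluster, beside 1.26%, 0.487%, 1.63% and 0.624% of all genes. Phase calls from fixed genes put 14.3%, 19.2%, 10.8% and 17.7% of the cluster in S phase, against 15.8%, 23.8%, 10.8% and 24.8% of the other cells, and 12.6%, 0.518%, 20.2% and 2.16% in G2 or M, against 17.4%, 5.28%, 24.3% and 8.75%. The authors kept a separate Proliferating cluster among the other 8. Without the cells called in S, G2 or M, the median log2 ratio of the list in the untreated library labelled Trpv4-null was 0.40 in place of -2.57. The calls used this same list, so leaving out those cells removes its UMIs by construction, and no conclusion is drawn.

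A minority of 18 cells in the cluster carried Ccr7, the chemokine receptor that guides mature dendritic cells to lymph nodes, and these cells looked unlike the rest of the cluster. There were 3, 10, 0 and 5 such cells in the 4 libraries, picked after their values were seen by having at least 1 Ccr7 UMI, and 6 cells outside the cluster met the same rule. Summed over libraries, the 18 cells had 2654 CPM of the chemokine Ccl22, 585 CPM of the actin bundler Fscn1, 553 CPM of the amino acid oxidase Il4i1 and 502 CPM of the calcium channel subunit Cacnb3. The other 841 cells of the cluster had 0.560, 0.961, 2.56 and 0.801 CPM of the same genes. Ccl22, Fscn1, Il4i1 and Cacnb3 are all on the mature dendritic list. Il4i1 also had UMIs outside the Ccr7 cells, being counted in 7, 19, 3 and 11 cells of the cluster.

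In sums over the 4 libraries, to which the wild-type LPS library gave 10 of the 18 cells, class II chain genes were also higher in the Ccr7 cells, and macrophage genes lower. Cd74 stood at 7819 CPM against 2342 CPM in the other cells of the cluster, H2-Aa at 2328 against 617 CPM, H2-Eb1 at 2834 against 384 CPM and H2-Ab1 at 1586 against 700 CPM, whereas H2-DMa stood at 90.3 against 135 CPM. Within the wild-type LPS library Cd74 stood at 7495 against 1593 CPM, H2-Aa at 2199 against 371 CPM and H2-Eb1 at 2635 against 214 CPM. The 3 wild-type untreated Ccr7 cells did not share this, with Cd74 at 4512 against 4054 CPM, H2-Aa at 942 against 1278 CPM and H2-Ab1 at 118 against 1082 CPM. Lyz2 stood at 5040 against 15834 CPM, Csf1r at 251 against 811 CPM and C1qb, a complement chain of tissue macrophages, at 710 against 1763 CPM. Fewer than 10 Lyz2 UMIs were found in 9 of the 18 cells and in 1 of the other 841, and 0 Csf1r UMIs in 10 of the 18 and in 6 of the others. Adgre1, another macrophage marker, stood at 718 against 1406 CPM, with 0 UMIs in 8 of the 18 cells. The 18 cells were thus mixed, with macrophage genes lower in sum but not absent, so the name macrophage is uncertain for them. The class II differences between LPS and untreated cells of the cluster are given with and without these 18 cells. Their median depth was 11144 UMIs, against 12588 for the other cells of the cluster, all libraries together.

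**Figure D3:**
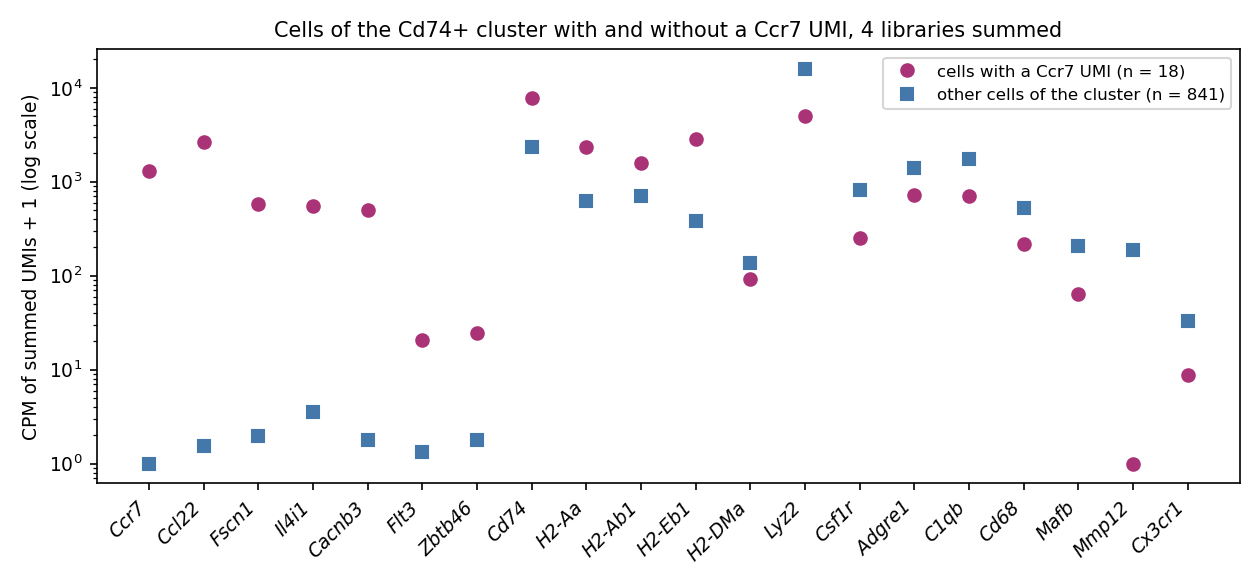
Level of 20 genes in the 18 cells of the Cd74+ cluster with a Ccr7 UMI (circles) and in the other 841 cells of the cluster (squares), as CPM + 1 of UMIs summed over the 4 libraries (log axis). Mature dendritic genes on the left are higher in the 18 cells, class II chain genes are higher in these sums, and macrophage genes such as Lyz2 (5040 against 15834 CPM) are lower.

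After LPS the cluster's class II genes were lower in CPM than in the untreated cluster, under both genotype labels. Cd74 was 0.445 times (0.430 to 0.459) and H2-Aa 0.343 times (0.323 to 0.365) the untreated level in wild type, and 0.571 times (0.554 to 0.589) and 0.525 times (0.494 to 0.558) under the Trpv4-null label. On the log2 scale Cd74 differed by -1.17 and -0.81, H2-Aa by -1.54 and -0.93, H2-Eb1 by -1.54 and -1.13, and H2-DMa by -1.35 and -1.19, with wild type first. Ciita differed most, by -2.94 and -2.88, from 112 to 31 UMIs in wild type and from 145 to 44 UMIs under the other label.

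Of the class II genes compared, 9 of 10 were below 0 under each label; 5 (wild type) and 3 (labelled Trpv4-null) were at least 2-fold lower, and 0 were at least 2-fold higher. Over all genes, 17.0% and 21.1% were at least 2-fold lower and 7.75% and 8.10% at least 2-fold higher. Only 33.9% and 31.8% of all genes lay above 0. The list medians were -1.02 and -0.71, beside -0.31 and -0.36 over all genes. March1 was the exception, at 0.80 and 0.71.

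The size of this difference depends on the scaling. With median-of-ratios and TMM factors the median of all genes moved from -0.31 to 0.11 and 0.13 in wild type and from -0.36 to 0.17 and 0.20 under the other label, and 62.3% and 63.4% (wild type) and 63.1% and 64.8% (labelled Trpv4-null) of the genes past 2-fold were higher after LPS, in place of 31.3% and 27.7%. Under these factors Cd74, H2-Aa, H2-Eb1, H2-DMa and Ciita kept their sign, Cd74 at -0.79 and -0.78 in wild type and at -0.32 and -0.30 under the other label. In the libraries labelled Trpv4-null H2-Ab1 changed from -0.40 to 0.09 and 0.11, H2-DMb1 from -0.46 to 0.02 and 0.05, and Ctss from -0.26 to 0.22 and 0.24, so no direction is given for them there.

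Leaving out the Ccr7 cells, of which 3 were in the untreated and 10 in the LPS library of wild type, made the wild-type differences larger. Cd74 then stood at -1.35, H2-Aa at -1.78, H2-Eb1 at -2.03 and Ciita at -3.65. In the libraries labelled Trpv4-null, with 0 and 5 such cells, the same genes stood at -0.90, -1.06, -1.44 and -2.95.

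The other clusters differed from the Cd74+ cluster in their class II values after LPS. H2-Ab1 stood at 1.60 and 1.02 on the log2 scale in the other cells, while it stood at -0.86 and -0.40 in the cluster (the latter 0.09 and 0.11 with the other scalings), a gap between the log2 ratios of -2.47 and -1.41. The gap was -2.51 and -1.43 with median-of-ratios factors. In the Il1b+_Cxcl2+ cluster H2-Ab1 had 7.86 CPM before and 44.0 CPM after LPS in wild type, and 4.77 and 36.5 CPM under the other label. In the other cells H2-Aa stood at -0.18 and -0.27, H2-Eb1 at -0.32 and -0.46 and Cd74 at -0.68 and -0.28. With TMM factors these values were 0.22 and 0.24, 0.04 and 0.01, and -0.21 and 0.26, so no direction is given for H2-Aa and H2-Eb1, nor for Cd74 under the Trpv4-null label.

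The balance between the H2-Ab1 and H2-Aa chains therefore differed between the cluster and the rest. The ratio of H2-Ab1 to H2-Aa UMIs was 0.839 (0.789 to 0.892), 1.34 (1.26 to 1.43), 0.908 (0.850 to 0.971) and 1.32 (1.25 to 1.39) in the cluster. In the other cells it was 1.63 (1.38 to 1.94), 6.23 (5.74 to 6.78), 1.23 (1.10 to 1.38) and 3.15 (2.93 to 3.38), so within each library the intervals of the cluster and the rest did not overlap. The ratio of H2-Eb1 to H2-Aa varied less, between 0.541 and 0.693 in all 8 sums. In the wild-type LPS library it was 0.6886 (0.6405 to 0.7401) in the cluster and 0.5408 (0.4736 to 0.6168) in the rest, again without overlap. In the other libraries the intervals of the cluster and the rest overlapped.

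Set against the other cells, all 10 class II genes compared had the lower LPS ratio in the cluster under both labels; 5 (wild type) and 2 (labelled Trpv4-null) differed by at least 2-fold. Over all genes the background was 0.429% and 0.646% at least 2-fold lower and 1.19% and 1.09% at least 2-fold higher. The higher LPS ratio was in the cluster for 59.2% and 52.9% of all genes. Among the class II genes the smallest difference was that of Lgmn, at -0.075 and -0.008. The list medians were -0.94 and -0.59, beside 0.06 and 0.02 over all genes. For single genes the difference was -0.49 and -0.52 for Cd74, -1.22 and -0.67 for H2-Eb1, -1.17 and -0.75 for H2-DMa, and -1.77 and -1.12 for Ciita. Without the Ccr7 cells it was -1.71 and -0.98 for H2-Eb1, -0.66 and -0.62 for Cd74 and -2.48 and -1.19 for Ciita. The Ciita value rests on few UMIs in the other cells after LPS (0.10 and 0.326 CPM), and with a pseudocount of 0.1 in place of 1 CPM it was 0.09 under the Trpv4-null label.

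**Figure D4:**
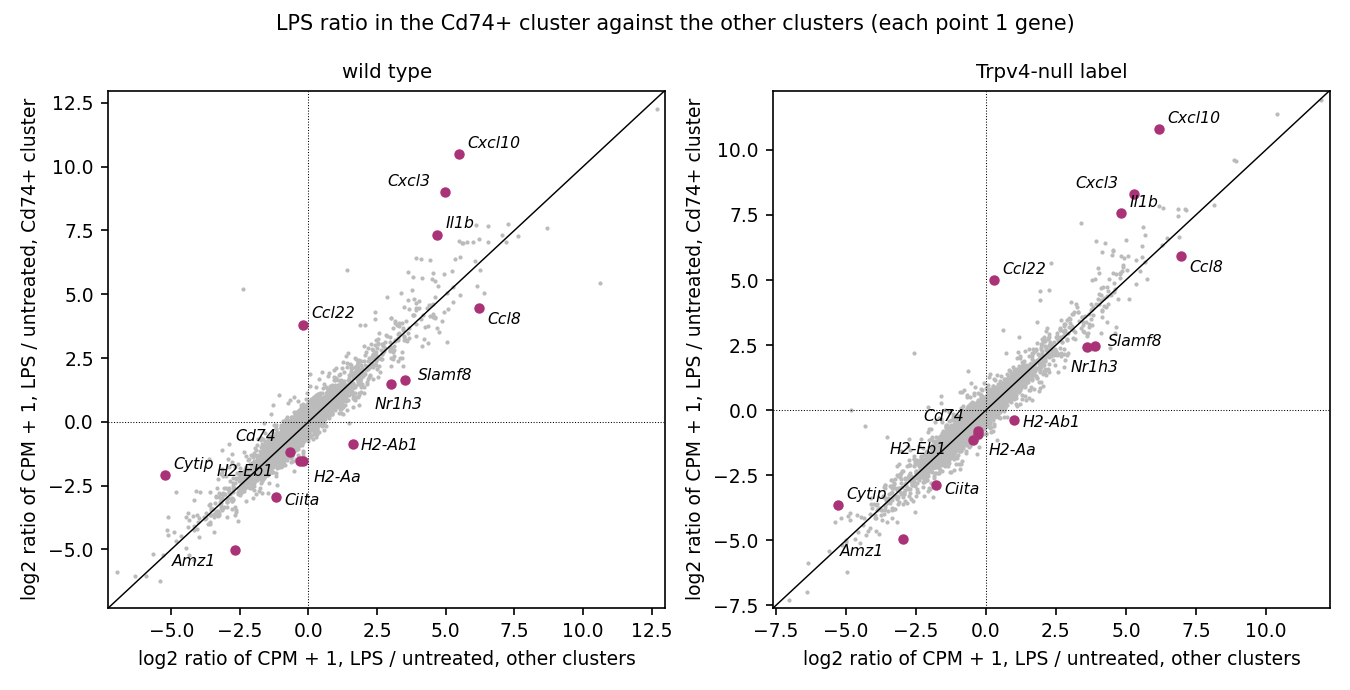
Log2 ratio of CPM + 1 between LPS and untreated cells in the Cd74+ cluster (vertical) against the other clusters (horizontal), for every gene compared, in wild type (left panel) and under the Trpv4-null label (right panel); the diagonal marks equal ratios. H2-Ab1 lies right of 0 and below it (right panel: above it, at 0.09 and 0.11, with the other scalings), Cxcl10, Cxcl3, Il1b and Ccl22 lie above the diagonal, and Ccl8, Nr1h3 and Slamf8 lie below it.

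Interferon-stimulated and class I genes were higher after LPS in the cluster, as in the other cells. Of 20 interferon-stimulated genes, 19 were at least 2-fold higher after LPS under both labels, with medians of 5.23 and 4.63, beside 3.97 and 3.95 in the other cells. Over all genes 7.75% and 8.10% were at least 2-fold higher. The antiviral ubiquitin-like protein Isg15 went from 16.4 to 2287 CPM in wild type and from 28.5 to 3136 CPM under the other label. All 10 interferon-inducible GTPases compared were at least 2-fold higher. Of the antigen-presentation genes of class I, 16 of 21 were at least 2-fold higher under each label, with medians of 1.35 and 1.56, the peptide transporter Tap1 going from 46.9 to 273 CPM and from 45.3 to 298 CPM.

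The 12 genes highest after LPS by ratio in wild type included the acute-phase protein Saa3, the chemokines Cxcl10, Cxcl3, Ccl2 and Ccl12, the itaconate enzyme Acod1, the formyl peptide receptors Fpr1 and Fpr2, and Il1b. Saa3 had 5.65 and 32274 CPM in wild type and 7.13 and 31760 CPM under the Trpv4-null label, untreated first. The gene with the lowest LPS ratio in wild type was Hpgd, the prostaglandin-degrading enzyme, with 74.0 and 72.8 CPM untreated and 0 UMIs after LPS, at least 104-fold and 117-fold lower. The lower group also held the T cell costimulatory receptor Cd28, the iron exporter Slc40a1 and the metallopeptidase Amz1. Amz1 had 39.0 and 42.8 CPM in the untreated cluster against 7.01 and 8.22 CPM in the other untreated cells, and under 1 CPM after LPS.

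The 10 genes with the highest LPS ratio in the cluster relative to the other cells were S100a9, Cxcl10, Ccl22, Cxcl3, S100a8, Il1b, Slc7a2, Ifit1bl1, Cytip and Aspm. Cxcl10, a chemokine induced by interferon, had 0 UMIs in the untreated cluster under both labels. In the other untreated cells it had 28.4 and 29.4 CPM, at least 16.7-fold and 19.3-fold more. Those UMIs came from 123 of 6797 and 135 of 5282 cells, so most other untreated cells had 0 as well. After LPS Cxcl10 had 1430 and 1772 CPM in the cluster and 1307 and 2191 CPM elsewhere. The other cells include the Ifit1bl1+_Cmpk2+ cluster, and its part in these differences was not tested. In the untreated cluster interferon-stimulated genes were at least 2-fold lower than in the rest for 3 of 13 and 5 of 15 compared, beside 1.26% and 1.63% of all genes, Rsad2 at 12.4 and 13.7 CPM against 62.1 and 78.1 CPM.

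Cxcl3, a neutrophil-attracting chemokine, had 0 UMIs untreated and 508 and 316 CPM after LPS in the cluster, at least 299-fold and 207-fold higher. In the other LPS cells it had 41.2 and 44.3 CPM. Within the cluster it was counted in 55 of 193 and 77 of 232 LPS cells, and 5 cells held 55.8% and 35.3% of its UMIs. Il1b, the pyrogenic cytokine, went from 6.22 to 1162 CPM in wild type and from 2.55 to 666 CPM under the other label, beside 20.8 to 555 CPM and 7.64 to 244 CPM in the other cells. The Il1b level after LPS in the cluster was therefore above that of the other cells under both labels, while the untreated level was below it. Without the Ccr7 cells the gap in the Il1b ratio was 4.10 in wild type, in place of 2.66.

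Genes with the lower LPS ratio in the cluster, by the mean of both labels, were H2-Ab1, Ciita, Amz1, Slamf8, Nr1h3, Naaa, Ccl8, Bst1, Slc13a3 and Ccl5. Slamf8, an inhibitory receptor of phagocytes, stood at 18.6 and 12.7 CPM in the untreated cluster against 3.07 and 2.46 CPM elsewhere, and at 60.4 and 74.9 CPM against 45.8 and 50.7 CPM after LPS. Nr1h3 (the oxysterol receptor LXR alpha) stood at 33.3 and 16.3 CPM against 11.8 and 7.62 CPM untreated and at 94.8 and 91.8 CPM against 103 and 105 CPM after LPS. For Slamf8, Nr1h3 and Naaa the cluster was further above the other cells before LPS than after it. Ccl5 is on the list because of 569 UMIs in 3 wild-type untreated cells: without the Ccr7 cells its wild-type gap was 3.06 in place of -5.17. Under the Trpv4-null label its gap was 0.985, a higher LPS ratio in the cluster.

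Ccl22, Cytip and S100a9 were set by few cells. Ccl22 had 521 UMIs in 12 cells of the wild-type LPS cluster, 95% of them in 5 cells. Cytip, a cytohesin partner of leukocytes, had a gap of 3.14 and 1.62 in its LPS ratio, which became 0.22 and 0.32 without the Ccr7 cells. Of the 327 UMIs of the neutrophil protein S100a9 in the wild-type LPS cluster, 325 lay in 1 cell.

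Between the genotype labels the cluster differed in few genes, and none of the class II genes reached 2-fold. Cd74 was 0.861 times (0.833 to 0.890) and H2-Aa 0.737 times (0.692 to 0.784) the wild-type level in the untreated library labelled Trpv4-null, and 1.11 times (1.07 to 1.14) and 1.13 times (1.06 to 1.20) after LPS. On the log2 scale H2-Ab1 stood at -0.33 and 0.14, H2-Eb1 at -0.43 and -0.02, H2-DMa at 0.11 and 0.28, and H2-DMb1 at 0.26 and 0.53, untreated first, and of these H2-Eb1 after LPS changed sign with both other scalings (0.09) and without the Ccr7 cells (0.16). Of the class II genes compared, 0 of 10 untreated and 0 of 9 after LPS were at least 2-fold apart in either direction. Over all genes 0.397% (higher) and 0.447% (lower) passed 2-fold untreated, and 0.386% and 0.328% after LPS; among the genes past 2-fold after LPS 54.1% were higher, and 63.6% with median-of-ratios factors.

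Summed over the other cells, H2-Aa stood at a log2 ratio of 1.02 and 0.94 between the labels, H2-Eb1 at 1.01 and 0.87 and Cd74 at 0.49 and 0.89. The sums do not hold for each cluster. Untreated H2-Aa went from 19.3 CPM in wild type to 59.2 CPM under the Trpv4-null label in Proliferating and from 25.8 to 47.0 CPM in Ifit1bl1+_Cmpk2+. In Macrophage it went from 2.56 to 1.88 CPM, in Il1b+_Cxcl2+ from 4.33 to 2.83 CPM, in High_Lpl_Fabp4+ from 4.46 to 2.91 CPM and in Tmem176+ from 5.82 to 2.60 CPM. The part of free RNA in the low levels of the other cells was not tested.

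Among the genes named by size, Itgb7 and Ly6a were also among the leading genes of the cluster against the rest. Untreated, Itgb7 had 51.4 CPM in wild type and 116 CPM under the Trpv4-null label, and Ly6a, a surface protein induced by interferon, 20.3 and 53.5 CPM. In the other cells they had 10.4 and 16.9 CPM, and 4.27 and 20.8 CPM. Ly6a was counted in few untreated cells of the cluster, 14 of 231 and 36 of 203. The 5 cells with the most held 69.4% and 36.2% of its UMIs. Ptgs1, the constitutive cyclooxygenase, had 43.5 and 100.3 CPM in the cluster, beside 46.2 and 72.6 CPM. Selenbp1, Acss1, Smim3, Tiparp and Tmem37 were among the other leading genes with higher values, at log2 ratios from 1.20 to 1.51. Itgb7, Ly6a and Ptgs1 were also higher under the label in the other cells, at 0.65, 2.05 and 0.64.

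On the lower side Ccl5, Ccr7 and S100a8 led the untreated comparison, each from 3 cells of the wild-type library. The plexin domain protein Plxdc2 had 58.8 CPM in wild type and 15.3 CPM under the label, beside 12.9 and 4.13 CPM elsewhere. Dusp1, a phosphatase that restrains MAP kinases, had 276 and 88.6 CPM, beside 328 and 112 CPM, and the immediate-early factor Fos 492 and 199 CPM, beside 466 and 184 CPM. Of 13 immediate-early genes compared, 12 lay below 0 in the untreated cluster, with a median of -0.51 beside -0.01 over all genes, and the same list had a median of -0.53 in the other cells. The immediate-early genes thus differed between these 2 libraries alike inside and outside the cluster.

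After LPS the lysosomal protein Gpnmb had 638 CPM in the wild-type cluster and 1918 CPM under the Trpv4-null label, beside 891 and 1712 CPM in the other cells, and the protease Ctsl 883 and 2068 CPM, beside 1554 and 2584 CPM. Serpinb2, an inhibitor of plasminogen activators, had 83.4 and 199 CPM, beside 14.9 and 51.5 CPM. In the cluster it was counted in 30 of 193 and 88 of 232 cells, and 5 cells held 70.7% and 42.5% of its UMIs. The matrix proteases Mmp8, Mmp13 and Mmp9 stood at 2.02, 1.34 and 1.16 on the log2 scale, beside 1.58, 1.52 and 0.67 in the other cells. In the cluster they were counted in 26, 26 and 28 of 193 wild-type cells and in 68, 64 and 52 of 232 under the label. In wild type 5 cells held 52.5%, 64.1% and 43.1% of their UMIs. Cd33, an inhibitory sialic acid receptor, had 58.9 and 25.8 CPM, beside 46.3 and 21.5 CPM. The remaining lower genes included Ccl22 (-1.97), Fscn1 (-1.58), Cacnb3 (-1.46), Cytip (-1.67) and Ccr7 (-1.23), in libraries with 10 (wild type) and 5 (labelled Trpv4-null) Ccr7 cells. Without the Ccr7 cells the number of genes at least 2-fold lower was 9 in place of 17.

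**Figure D5:**
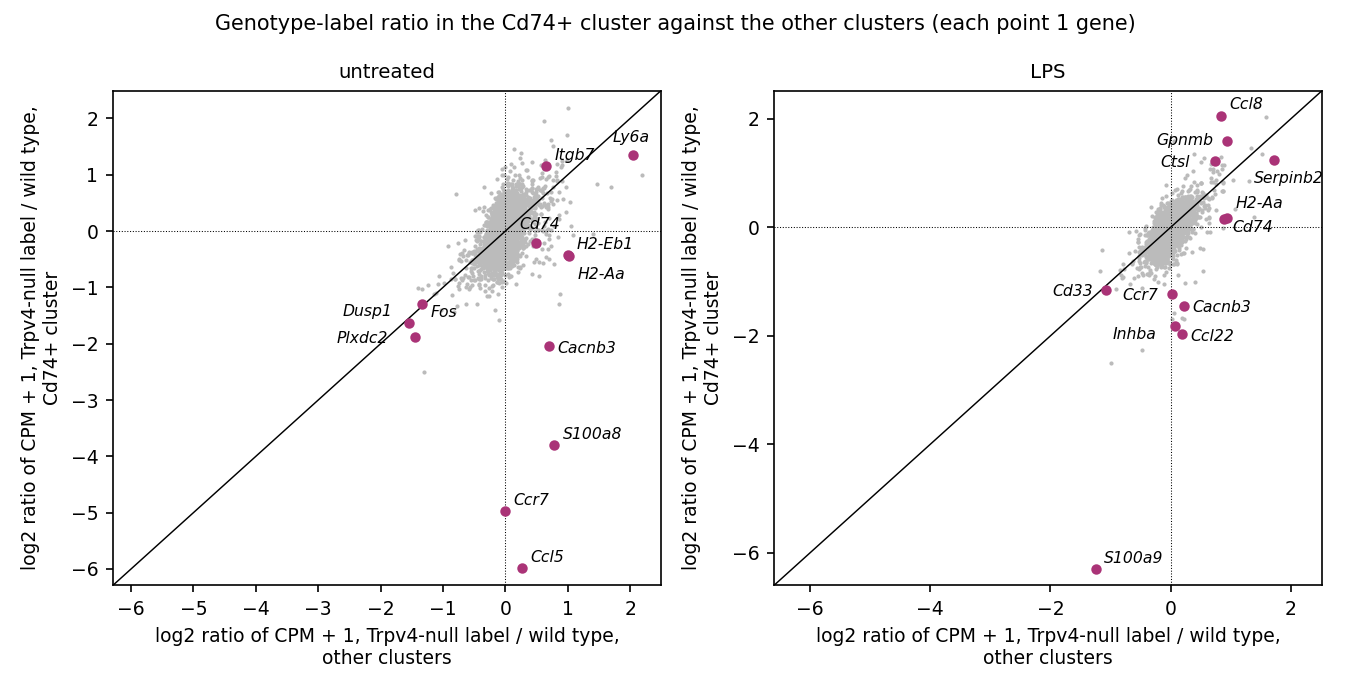
Log2 ratio of CPM + 1 between the libraries labelled Trpv4-null and wild type in the Cd74+ cluster (vertical) against the other clusters (horizontal), for every gene compared, untreated (left) and after LPS (right); the diagonal marks equal ratios. Ccl5, Ccr7 and S100a8 (untreated) and S100a9, Ccl22 and Inhba (LPS), which came from few cells, lie far below the diagonal, and H2-Aa and H2-Eb1 lie right of 0 and below it in the untreated panel.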

How the data were processed

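Droplet libraries (10x Genomics) of bone marrow-derived macrophages were processed by the authors with Cell Ranger 3.1.0, Seurat 4 and R 4.2 on build mm10, per the submitters' processing notes, which give no roles or filters. The authors deposited UMI counts per gene and cell, and a cell table with, per the file headers, UMI and gene counts, the ratio of log10 genes to log10 UMIs, the mitochondrial fraction, embedding coordinates (a score per axis), the library and the cluster name. Counts were summed per library over the Cd74+ cluster and over the other 8 clusters and expressed as CPM. With 1 library per group no test was made. Genes with at least 20 CPM and 30 UMIs in the higher sum were compared as log2 ratios of CPM + 1, and a 2-fold ratio served as a mark of size. Intervals are exact (Poisson, conditional or Clopper-Pearson, 95%) and cover counting error only. A gene at 0 was set to a floor of 3 UMIs per sum for fold bounds.

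Named genes are all class II members, the 20 highest and 12 lowest against the rest over 4 libraries, the 12 highest and 12 lowest of each LPS and genotype comparison, the 10 highest and 10 lowest LPS differences, and up to 4 genes of other lists; genes that mark the Ccr7 cells, and others given beside them, were chosen after their values were seen. A gene that met the rule is not reported here. The members and lists were chosen with earlier results of these data known. Alternatives were median-of-ratios and TMM scaling (edgeR 4.0.16), other pseudocounts and floors, means of per-cell CPM, and leaving out deep, cycling or Ccr7 cells. Sums were made in Python 3.11.15 with pandas 2.3.3, numpy 2.4.6 and scipy 1.17.1, doublet calls with scanpy 1.11.5, figures with matplotlib 3.10.9 and TMM factors in R 4.3.3. The ratio calls were tested on simulated data. Gene positions are from GENCODE and promoter sequences from RefSeq (GRCm38.p6).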

Additional observations from a re-analysis of the deposited data

Results flagged for a closer look

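These values are given because the log2 ratio had opposite signs in 2 groups, or in the cluster and the other cells, under both pairs of libraries, with every counting interval clear of 1. Each group is 1 library, so none of these differences was tested. H2-Ab1 after LPS differed between the Cd74+ cluster and the rest by -2.47 (wild type) and -1.41 (labelled Trpv4-null). Under the Trpv4-null label its ratio in the cluster, -0.40 in CPM, was 0.09 and 0.11 with the other scalings, so the opposite signs hold there in CPM only. S100a8 differed in the same contrast by 1.97 and 4.76, with 46 of its 48 wild-type untreated and 174 of its 185 wild-type LPS UMIs in 1 cell each. Between genotype labels, the cluster differed from the rest by -6.26 (untreated) and -0.10 (LPS) for Ccl5, and by -2.74 and -1.67 for Cacnb3. All 569 Ccl5 UMIs of the wild-type untreated cluster lay in 3 cells. The untreated Cacnb3 value came from 13 (wild type) and 2 (labelled Trpv4-null) UMIs in the cluster. At 7.35 and 1.02 CPM there, and 0.429 and 1.31 CPM in the rest, it was under the 20 CPM asked of a compared gene. After LPS Cacnb3 was counted in 10 of 193 and 8 of 232 cells of the cluster. The wild-type LPS ratio of Dusp1 minus that of the libraries labelled Trpv4-null was -1.99 in the cluster and -1.95 in the rest. The genotype ratio of Fos untreated minus that after LPS was -1.83 in the cluster and -1.97 in the rest, and that of Fabp4 -1.84 and -1.06.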

How the results depend on the processing

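Leaving out a library was not possible with 1 library per group, and no paired analysis was possible because the groups share no replicate numbers beyond that 1 library; the doublet alternative was void, since Scrublet marked 0.00365% of cells. Of the counts of genes past 2-fold under the alternatives, 145 lay within 1.5 times the main count and 63 did not. Of the list medians, 1924 moved less than their allowed spread, 312 more and 8 reversed. Of the named gene values, 2708 moved less than that spread, 618 more and 2 reversed. Of the shares of cells, 41 lay within the interval of the main value and 43 did not. A value counted as reversed only where the main ratio was at least 2-fold and the sign changed. Smaller sign changes, such as those of H2-Ab1 and H2-DMb1, are not among them. The cause of each change was not tested except where the alternative itself removes genes or cells. The reversed values were Ciita's LPS gap under the Trpv4-null label at a pseudocount of 0.1 (0.085), Ccl5's wild-type LPS gap without Ccr7 cells (3.06), and list medians: shared dendritic at a floor of 50 CPM (-0.20, -0.41 and -0.13 in the wild-type untreated, wild-type LPS and labelled LPS libraries) and without the deepest cells (-0.20, labelled LPS), alternative activation after LPS at that floor (0.003), monocyte with per-cell means (-0.045), G2 and M without cycling cells (0.40), and mature dendritic between labels after LPS without Ccr7 cells (0.045).

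Counts follow as higher/lower. With median-of-ratios factors: 51 lower (wild-type untreated against rest) and 64 lower (labelled untreated), and LPS 843/511 in wild type and 944/553 labelled; with TMM, 853/492 and 974/529. With a pseudocount of 5 CPM: genotype untreated 12 higher, LPS gap 51 higher in wild type and 19 lower labelled; of 0.1 CPM, 50 lower in wild type. Without a floor: against the rest 221/481, 178/227, 160/489 and 114/264, LPS 816/2253 and 838/2934, genotype 527/413 and 110/194, LPS gap 423/236 and 390/220. At 50 CPM: 26/35, 37/11, 23/40 and 27/7, LPS 599 and 704 lower, genotype 8/13 and 10/6, LPS gap 46 higher in wild type and 36/20 labelled. With per-cell means the wild-type LPS gap had 43 lower. Without the deepest cells: genotype untreated 39/41, wild-type gap 44 lower. Without cycling cells: 17, 54 and 12 lower against the rest in all but the wild-type untreated library, genotype untreated 40 higher, and a cluster share of 4.24% in the labelled LPS library. Without Ccr7 cells: genotype after LPS 9 lower. With other clusters weighted equally: 155, 50 and 155 lower against the rest, in all but the labelled LPS library.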

Other observations

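Of 7 costimulatory genes compared in the cluster, 3 (wild type) and 4 (labelled Trpv4-null) were at least 2-fold higher after LPS, beside 7.75% and 8.10% of all genes. Cd83, at log2 ratios of -2.75 and -2.69, was the 1 member at least 2-fold lower, beside 17.0% and 21.1% of all genes. In the other cells 4 of 6 costimulatory genes compared were at least 2-fold higher under each label, and 1 was at least 2-fold lower. The list medians were 0.66 and 1.57 in the cluster and 2.25 and 2.61 in the other cells. The medians over all genes were -0.31 and -0.36, and -0.39 and -0.42. In the cluster Cd40, the receptor for helper T cells, went from 6.22 to 65.3 CPM in wild type and from 4.07 to 84.3 CPM under the other label. The inhibitory ligand Cd274 (PD-L1) went from 25.4 to 236 CPM and from 25.5 to 338 CPM there. Cd86 stood at 21.5, 28.0, 22.4 and 26.0 CPM in the cluster against 14.3, 10.2, 13.3 and 13.9 CPM in the other cells, and the Ccr7 cells carried 141 CPM of it against 23.1 CPM in the other cells of the cluster. The interferon-gamma receptor chain Ifngr1 stood at 323, 122, 291 and 99.1 CPM in the cluster, and its level in the other cells was 278, 123, 251 and 119 CPM.

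Of the factors that bind class II promoters, Rfx5, Rfxap, Rfxank, Nfya, Nfyb, Nfyc and Creb1 lay within 0.42 log2 units of the other cells in every library, whereas Ciita lay 2.93 to 4.70 units above them. The Ciita values after LPS, 2.93 and 2.94, came from 7.37 and 9.16 CPM in the cluster, under the 20 CPM asked of a compared gene. Of the 13 listed class II regulators, Ciita included, 8 were compared in each library. Cxcr4, a partner of Cd74 in the receptor for the cytokine Mif, had 184 and 240 CPM in the untreated cluster and 8.32 and 7.91 CPM after LPS, beside 241 and 270 CPM, and 21.4 and 18.3 CPM, in the other cells. Of 17 glycolysis and hypoxia genes, 9 were at least 2-fold higher after LPS in wild type and 1 under the Trpv4-null label, beside 7.75% and 8.10% of all genes, and 8 and 1 in the other cells. These counts are in CPM, and the list was not counted with the other scalings. Over all genes the number at least 2-fold higher after LPS in the cluster was 476 and 495 in CPM. It was 843 and 944 with median-of-ratios factors. Between the labels after LPS 16 of the 17 glycolysis and hypoxia genes were below 0, with a median of -0.46 in the cluster beside -0.06 over all genes, and 17 of 17 in the other cells, with a median of -0.33.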
